A study of Homo sapiens with 6 samples.

Results

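Collagen prolyl and lysyl hydroxylases are the enzymes that add hydroxyl groups to proline and lysine in newly made collagen chains inside the endoplasmic reticulum. The 10 genes described here were taken by symbol from the 61859 genes of the deposited count table. They encode the alpha subunits of collagen prolyl 4-hydroxylase (P4HA1, P4HA2 and P4HA3), its beta subunit (P4HB), the lysyl hydroxylases (PLOD1, PLOD2 and PLOD3) and the prolyl 3-hydroxylases (P3H1, P3H2 and P3H3). RNA was sequenced from IOMM-Lee, an established human cell line from a malignant (grade 3) meningioma. The hypoxia group held 3 libraries from cells kept for 48 h in a workstation at 0.2% O2 and 5% CO2, and the normoxia group held 3 libraries whose oxygen level the labels do not give. Both groups were grown at 37 °C in DMEM with 10% fetal bovine serum and antibiotics, and neither carried a genetic change named in the labels. The labels call the libraries biological replicates, all of 1 line, and give 48 h for both groups. Every p-value thus speaks only of the spread between cultures of that line. The question was how prolonged low oxygen changed the RNA of these enzymes.

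Prolyl 4-hydroxylation lets the collagen triple helix stay folded at body temperature. Hydroxylysine serves as the attachment site for sugars and as the starting point of the crosslinks that lysyl oxidases later form between collagen molecules. All of these hydroxylases consume molecular oxygen and 2-oxoglutarate and need iron and ascorbate. P4HA1, P4HA2 and PLOD2 are textbook targets of the hypoxia-inducible factors (HIF), the transcription factors that accumulate when oxygen is low.

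The 6 libraries held between 10619864 and 19554178 counts. Levels are CPM, counts scaled to a common library total with TMM, a factor per library that balances the bulk of genes, and 3 counts corresponded to between 0.133 and 0.316 CPM. The libraries separated by oxygen on the first principal component (80.9% of the variance), while hypoxia replicate 3 stood apart from the other hypoxia libraries on the next (7.83%). Of 8 meningioma and arachnoid markers, VIM, DSP, CRABP2 and MUC1 rose and NF2 and SSTR2 fell, whereas PTGDS and PGR had at most 1 count in any library. The 5 leukocyte markers summed to at most 1.12 CPM in any library. The 5 endothelial markers summed to between 15.7 and 19.1 CPM in normoxia and between 4.85 and 7.71 in hypoxia, with TEK and KDR called lower. The 5 keratinocyte markers summed to between 12.99 and 18.2 CPM in normoxia and between 24.6 and 55.6 in hypoxia, all but a trace of it KRT10, with KRT14 and KRT1 at 0. Of 5 osteoblast and chondrocyte markers, RUNX2 and SOX9 were tested and not called, and SP7, BGLAP and ACAN had at most 4 counts in any library. The part of these markers in the results below was not tested. In bulk RNA, fewer cells that express a gene and less RNA per cell cannot be told apart.

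Most of the hydroxylase RNAs were higher in hypoxia, and the rise was uneven within the family. P4HA2, P4HA1 and PLOD2 rose 13.3-fold, 12.5-fold and 12.1-fold, P4HA3, PLOD1 and P4HB rose 5.53-fold, 5.05-fold and 3.71-fold, P3H2 rose 1.88-fold and PLOD3 1.25-fold. P3H1 and P3H3 were not called. All 10 genes passed the filter on low counts, P4HA3 only through its hypoxia libraries, so that its call was the likely outcome and lends no support. Of the 10, 8 were called higher and 0 lower (edgeR quasi-likelihood test, Benjamini-Hochberg adjusted p under 0.05), where 31.2% of the 16411 tested genes were called higher and 31% lower. Leaving P4HA3 aside, 7 of 9 were called higher. The same 8 genes lay higher in every hypoxia library than in any normoxia library, or 7 of 9 without P4HA3. Of all tested genes, 33.4% did so. The median log2 change was 2.11 over the 10 genes and 0.0094 over all tested genes. Without P4HA3, the middle of the 9 values was that of P4HB, 1.89. Together the 10 genes took between 0.0682% and 0.0694% of all counts in the normoxia libraries and between 0.339% and 0.429% in the hypoxia libraries.

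**Figure D1:**
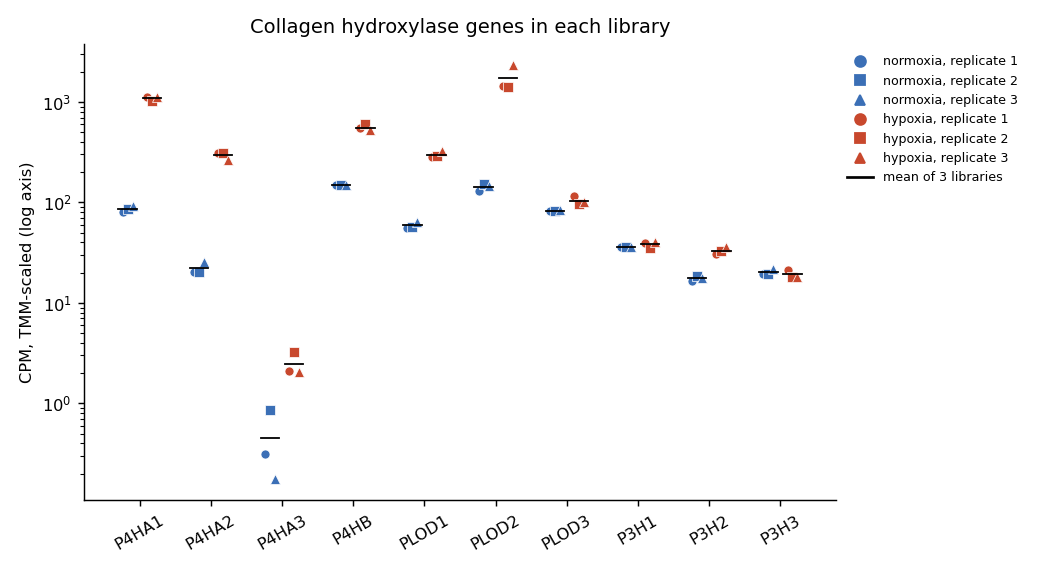
CPM (TMM-scaled, log axis) of the 10 hydroxylase genes in the 3 normoxia (blue) and 3 hypoxia (red) libraries, with the replicate number as symbol and the group mean as a line. The groups lie apart for 8 genes and overlap for P3H1 and P3H3, and PLOD2 reaches 2346 CPM in hypoxia replicate 3.

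The promoters are shown for the 3 genes with the largest rise and, for contrast, for PLOD3 and P3H1, whose RNA changed little or was not called. Each runs from 250 bases before to 50 bases after a RefSeq transcript start (GRCh38.p14), 5′ to 3′ on the gene's strand. Capitals mark ACGTG or GCGTG, the core letters of the HIF binding motif, on either strand, so that the reverse strand reads as CACGT or CACGC. The regions are chr10:73096817-73097116 for P4HA1, chr5:132227042-132227341 for P4HA2, chr3:146161135-146161434 for PLOD2, chr7:101217532-101217831 for PLOD3 and chr1:42766979-42767278 for P3H1, all on the minus strand.
P4HA1: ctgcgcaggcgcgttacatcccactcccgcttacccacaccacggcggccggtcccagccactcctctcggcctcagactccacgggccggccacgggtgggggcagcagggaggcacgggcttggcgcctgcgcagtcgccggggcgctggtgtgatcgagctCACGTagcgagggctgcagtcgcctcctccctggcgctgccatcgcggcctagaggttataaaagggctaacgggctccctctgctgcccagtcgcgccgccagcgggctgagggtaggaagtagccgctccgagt
P4HA2: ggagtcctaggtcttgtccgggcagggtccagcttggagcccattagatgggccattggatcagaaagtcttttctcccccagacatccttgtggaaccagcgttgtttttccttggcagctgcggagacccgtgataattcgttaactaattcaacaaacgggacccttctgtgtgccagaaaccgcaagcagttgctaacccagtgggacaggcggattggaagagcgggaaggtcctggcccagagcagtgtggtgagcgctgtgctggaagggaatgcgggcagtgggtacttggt
PLOD2: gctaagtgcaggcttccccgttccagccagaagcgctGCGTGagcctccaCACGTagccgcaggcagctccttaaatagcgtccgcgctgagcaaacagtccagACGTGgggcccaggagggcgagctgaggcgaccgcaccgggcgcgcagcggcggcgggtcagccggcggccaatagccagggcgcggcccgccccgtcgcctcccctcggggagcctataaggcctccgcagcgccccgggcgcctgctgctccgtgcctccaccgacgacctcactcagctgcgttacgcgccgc
PLOD3: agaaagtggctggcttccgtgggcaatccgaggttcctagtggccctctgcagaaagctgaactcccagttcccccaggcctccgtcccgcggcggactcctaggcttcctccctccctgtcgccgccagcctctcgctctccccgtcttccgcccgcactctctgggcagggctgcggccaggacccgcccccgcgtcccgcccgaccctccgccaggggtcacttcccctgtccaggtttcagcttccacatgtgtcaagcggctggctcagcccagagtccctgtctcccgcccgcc
P3H1: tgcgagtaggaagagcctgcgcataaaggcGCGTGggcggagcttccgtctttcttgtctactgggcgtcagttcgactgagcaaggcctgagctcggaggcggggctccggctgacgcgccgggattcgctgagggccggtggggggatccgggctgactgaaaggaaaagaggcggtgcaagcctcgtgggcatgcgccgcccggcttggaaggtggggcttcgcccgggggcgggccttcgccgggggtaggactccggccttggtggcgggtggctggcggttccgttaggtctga

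The PLOD2 window held 3 matches, beginning at -213, -200 and -146 from the transcript start, and the P4HA1 window 1 match at -86. The P3H1 window also held 1 match, at -220, and the P4HA2 and PLOD3 windows held 0. RefSeq promoters were found for 9 of the 10 genes. Of these 9, 6 held at least 1 match: beside PLOD2, P4HA1 and P3H1, they were P4HB with 1, PLOD1 with 2 and P3H2 with 1 and 3 in its 2 annotated promoters, where the 2 ACGTG matches on opposite strands overlap. P3H3 held 0. Of all 35116 promoters of this length in the table, 48.4% held a match, 21.4% held ACGTG and 10.1% held at least 3 matches. Among the 15968 promoters of tested genes, the closer background for these genes, 60.0% held a match and 25.5% held ACGTG. A match is a description of the letters only, and no match says only that these letters are not in this window.

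P4HA1 (ENSG00000122884, GRCh38 chromosome 10, 73007217 to 73096974) encodes the main catalytic alpha subunit of collagen prolyl 4-hydroxylase. It stood at 81.1, 86.3 and 92.9 CPM in normoxia and at 1123, 1023 and 1107 CPM in hypoxia. The hypoxia libraries lay close together and far above the normoxia libraries. The log2 change was 3.64 ± 0.11 (SE; edgeR adjusted p = 2.57e-09).

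P4HA2 (ENSG00000072682, chromosome 5, 132191838 to 132295315) encodes the alternative alpha subunit, which is prominent in cartilage and bone. Its levels were 20.1, 20.4 and 25.8 CPM in normoxia and 310, 310 and 263 CPM in hypoxia. Here hypoxia replicate 3 was the lowest of the hypoxia libraries, and every hypoxia library was still above all normoxia libraries. The change of 3.74 ± 0.13 (SE, log2; edgeR adjusted p = 8.95e-09) was the largest of the 10 genes and ranked 134 of 16411 from the largest rise down. P4HA1 was ranked 142 and PLOD2 153 on that scale.

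P4HA3 (ENSG00000149380, chromosome 11, 74235801 to 74311657), the remaining alpha subunit, was close to the limit of detection. It had 7, 14 and 3 counts in normoxia (0.311, 0.858 and 0.175 CPM) and 20, 32 and 34 in hypoxia (2.11, 3.26 and 2.05 CPM). All hypoxia values were above all normoxia values, but the normoxia values rested on few counts, and 1 normoxia library against 3 hypoxia libraries reached the count minimum of the filter. The estimated log2 change was 2.47 ± 0.51 (SE, edgeR adjusted p = 0.00168). It was 2.09 without normoxia replicate 3 and 3.23 without normoxia replicate 2, the lowest and highest of the alternatives. PPME1, a gene on the opposite strand, shares 166 exon bases with P4HA3 and rose from between 60.7 and 67.5 CPM to between 159 and 173 CPM. The strand setting of the counting is not given in the sources used here, so reads of PPME1 in the shared bases and reads of P4HA3 cannot be told apart.

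P4HB (ENSG00000185624, chromosome 17, 81843159 to 81860694) encodes protein disulfide isomerase. That protein is the beta subunit of prolyl 4-hydroxylase and also works on its own, forming and rearranging disulfide bonds in many secreted proteins. Its levels were 148, 151 and 151 CPM in normoxia and 551, 598 and 520 CPM in hypoxia. The normoxia libraries were nearly identical, and the groups were well apart. On the log2 scale the change was 1.89 ± 0.09 (SE; edgeR adjusted p = 8.02e-08).

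The balance between subunits was compared per exon length, since levels of different genes can only be set side by side that way. Lengths were the merged exons of GENCODE release 29. The summed alpha subunit RNAs over P4HB RNA gave ratios of 1.03, 1.07 and 1.17 in the normoxia libraries and of 3.85, 3.26 and 3.97 in the hypoxia libraries. The ratio was thus higher in every hypoxia library than in any normoxia library. Its level depends on the length used. With principal transcript lengths it was 0.609, 0.636 and 0.699 in normoxia and 2.31, 1.98 and 2.35 in hypoxia. The log2 ratio was 0.12 ± 0.09 in normoxia and 1.88 ± 0.15 in hypoxia (SD, n = 3), a difference of 1.76 (exact two-sided permutation test, p = 0.1, the smallest that 3 against 3 libraries allow).

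Within the alpha subunits, the shares of the main isozymes moved by less than the spread between libraries. P4HA1 held 91.2% ± 0.439 of the summed alpha RNA per exon length in normoxia and 90.8% ± 1.03 in hypoxia (SD, n = 3). P4HA2 held 8.43% ± 0.671 and 8.99% ± 0.986, and P4HA3 at most 0.701% in any library. The group ranges overlapped for P4HA1 and P4HA2 (exact permutation p = 0.7 and 0.5, or 0.7 and 0.562 after adjustment over the 9 shares tested), and a p of this size does not show that the shares were equal. P4HA2 has 21 annotated transcripts with a merged exon length of 8502 bases, against 3349 bases for its principal transcript. With principal transcript lengths P4HA2 held 17.6% of the alpha RNA in normoxia and 18.7% in hypoxia.

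PLOD2 (ENSG00000152952, chromosome 3, 146069440 to 146163653) encodes lysyl hydroxylase 2, which acts on the telopeptides at the ends of collagen molecules and thereby sets the type of crosslink. It stood at 131, 154 and 145 CPM in normoxia and at 1451, 1409 and 2346 CPM in hypoxia. Hypoxia replicate 3 was 1.64 times the mean of the other hypoxia libraries, and all 3 were far above normoxia. The log2 change was 3.60 ± 0.21 (SE; edgeR adjusted p = 5.51e-07), and 3.29 without hypoxia replicate 3.

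PLOD1 (ENSG00000083444, chromosome 1, 11934205 to 11975538) encodes lysyl hydroxylase 1, which acts on lysines in the triple helix and is mutated in the kyphoscoliotic form of Ehlers-Danlos syndrome. Its levels were 56.3, 57.5 and 64.6 CPM in normoxia and 284, 288 and 328 CPM in hypoxia. The groups were clearly apart. In edgeR, PLOD1 changed by 2.34 ± 0.10 on the log2 scale (SE, adjusted p = 3.60e-08).

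PLOD3 (ENSG00000106397, chromosome 7, 101205977 to 101218420) encodes lysyl hydroxylase 3, which also adds sugars to hydroxylysine. It stood at 82.8, 81.4 and 84.5 CPM in normoxia and at 115, 95.9 and 99.9 CPM in hypoxia. The groups did not overlap, but the gap was small. PLOD3 was called higher, at 0.32 ± 0.10 on the log2 scale (SE; edgeR adjusted p = 0.0147). It was not called when scaled by library totals alone (log2 change 0.0090, adjusted p = 0.945), with no filter on low counts (adjusted p = 0.287), or without hypoxia replicate 1, normoxia replicate 1 or normoxia replicate 2 (adjusted p = 0.0722, 0.0683 and 0.0886). ZNHIT1 on the opposite strand shares 429 exon bases with PLOD3 and was at 23.2 to 46.2 CPM in normoxia and 45.5 to 60.8 CPM in hypoxia. ZNHIT1 was itself called higher (log2 change 0.69, edgeR adjusted p = 0.0457), and in the shared bases its reads and those of PLOD3 cannot be told apart.

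Among the lysyl hydroxylases, PLOD2 took a larger share in every hypoxia library. PLOD2 held 40.5%, 44.4% and 41.2% of the summed PLOD RNA per exon length in the normoxia libraries and 72.0%, 72.2% and 79.5% in the hypoxia libraries. PLOD3 went from 32.9% ± 1.43 to 6.30% ± 1.60 of that sum (SD, n = 3), although its own RNA was not called lower in any setting, and PLOD1 went from 25.1% ± 1.26 to 19.1% ± 2.78. For each of the 3 shares the groups did not overlap (exact permutation p = 0.1, the smallest possible, adjusted p = 0.15 over the 9 shares tested). The difference in log2 change between PLOD2 and PLOD3 was 3.24, and PLOD1 minus PLOD2 was -1.23, with no overlap between groups (exact permutation p = 0.1 for each, adjusted p = 0.15 over the 12 pairs of members compared).

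**Figure D2:**
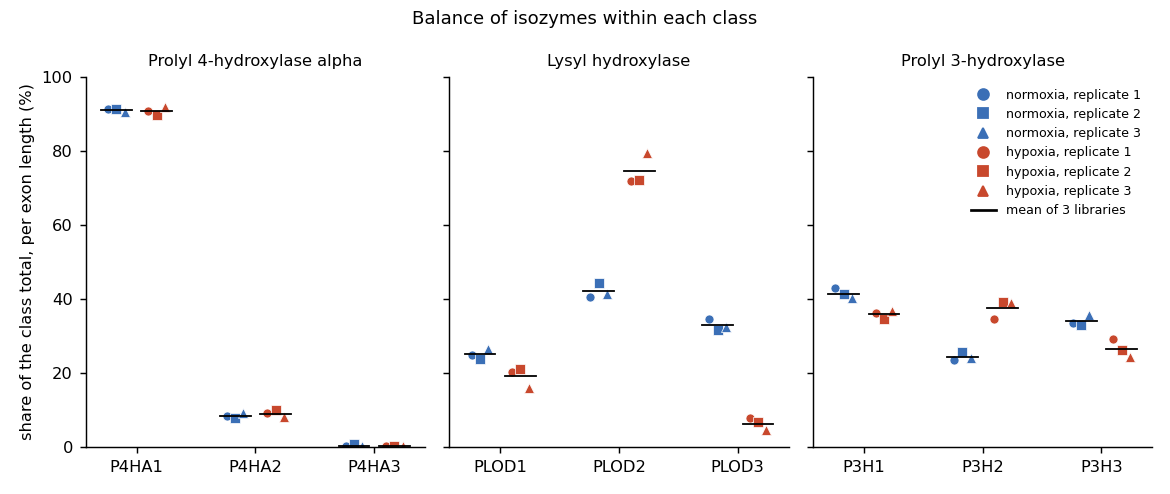
Share of each isozyme in the summed RNA of its class, per merged exon length (%), in each normoxia (blue) and hypoxia (red) library, with group means as lines. The alpha subunits of prolyl 4-hydroxylase keep nearly the same shares, whereas PLOD2 goes from 42.1% to 74.6% and PLOD3 from 32.9% to 6.30%.

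Prolyl 3-hydroxylases modify a few prolines per collagen chain. P3H1 (ENSG00000117385, chromosome 1, 42746335 to 42767084) works in a complex with the proteins CRTAP and cyclophilin B, and its loss causes a recessive form of osteogenesis imperfecta. It stood at 36.2, 36.0 and 36.1 CPM in normoxia and at 39.1, 34.9 and 40.6 CPM in hypoxia. The hypoxia libraries spread on both sides of the normoxia libraries. The log2 change was 0.08 ± 0.11 (SE; edgeR adjusted p = 0.516), below 0 with library totals alone (-0.23) and with no filter on low counts (-0.038).

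P3H2 (ENSG00000090530, chromosome 3, 189956728 to 190122437), whose product acts mainly on basement membrane collagen, was at 16.4, 18.5 and 17.9 CPM in normoxia and at 30.9, 32.5 and 35.6 CPM in hypoxia. Every hypoxia library was above every normoxia library. The edgeR estimate was 0.91 ± 0.12 on the log2 scale (SE, adjusted p = 8.10e-05).

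P3H3 (ENSG00000110811, chromosome 12, 6828410 to 6839851), whose product is known to work together with lysyl hydroxylase 1, was at 19.3, 19.5 and 21.8 CPM in normoxia and at 21.4, 17.9 and 18.3 CPM in hypoxia. The ranges overlapped, and the log2 change was -0.07 ± 0.13 (SE; edgeR adjusted p = 0.644). It was called lower with library totals alone (log2 change -0.39, adjusted p = 0.0237). GPR162, on the same strand, shares 114 exon bases with P3H3 and was at 3.37 to 9.09 CPM.

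Per exon length P3H1 held the largest share of the P3H RNA in normoxia, 41.5% ± 1.36, followed by P3H3 at 34.1% ± 1.45 and P3H2 at 24.4% ± 1.12 (SD, n = 3). In hypoxia P3H2 held 37.5% ± 2.56, P3H1 35.9% ± 1.06 and P3H3 26.6% ± 2.43. The hypoxia ranges of P3H2 and P3H1 overlapped, while P3H3 was the lowest of the class in each hypoxia library. With principal transcript lengths, P3H1 held 46.9% in hypoxia and P3H2 29.9%, so that the order of these 2 depends on the length. The difference in log2 change was -0.82 for P3H1 minus P3H2 and 0.98 for P3H2 minus P3H3, whereas P3H1 and P3H3 differed by 0.15 with overlapping groups (exact permutation p = 0.1, 0.1 and 0.3, adjusted p = 0.15, 0.15 and 0.36).

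**Figure D3:**
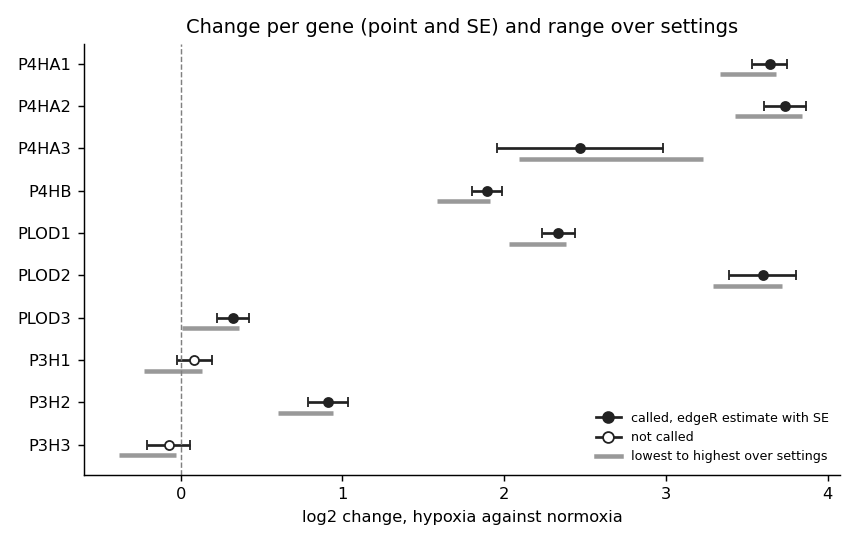
Log2 change of each hydroxylase gene, hypoxia against normoxia, as the edgeR estimate with its SE (points, open where not called), and the lowest to highest estimate over all settings tried (grey bars). The bars of P4HA1, P4HA2, PLOD2, PLOD1 and P4HB stay above 1.58, while the bar of P3H1 crosses 0 and that of PLOD3 begins at 0.0090.

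The 12 pairs of members compared also covered the other combinations. The change of P4HA1 and of P4HA2 exceeded that of P4HB by 1.75 and 1.84 on the log2 scale, with no overlap between groups (exact permutation p = 0.1 for each, adjusted p = 0.15). P4HA1 and P4HA2 differed by -0.09, with overlapping groups (exact permutation p = 0.6, adjusted p = 0.6). The P4HA3 comparisons rested on few counts. P4HA1 minus P4HA3 was 1.32, P4HA2 minus P4HA3 was 1.42 and P4HA3 minus P4HB was 0.43 (exact permutation p = 0.2, 0.1 and 0.5). With a prior count of 0.5 they were 1.03, 1.12 and 0.73 (exact permutation p = 0.2, 0.2 and 0.4). Without normoxia replicate 2 they were 0.85, 0.89 and 0.90, and without normoxia replicate 3 they were 1.74, 1.90 and 0.055. No pair could reach 0.05 with 3 libraries a group.

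**Figure D4:**
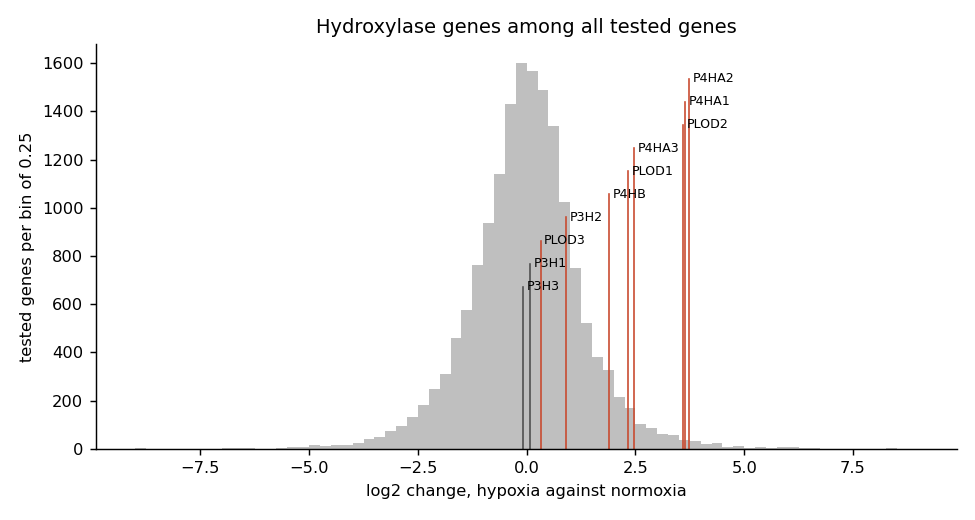
Histogram of the log2 change of the 16411 tested genes in bins of 0.25, with the 10 hydroxylase genes as vertical lines (red where called, grey where not). P4HA2, P4HA1 and PLOD2 lie together in the upper tail, between 3.60 and 3.74, and P3H1 and P3H3 lie in the centre.

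Per exon length the order of levels in normoxia ran from P4HB (28.2 ± 0.271 CPM per kilobase, SD, n = 3) and P4HA1 (28.1 ± 1.91), which did not differ beyond their spread, over PLOD2 (18.7 ± 1.47), PLOD3 (14.6 ± 0.274) and PLOD1 (11.2 ± 0.843). P3H1 (5.33 ± 0.0147), P3H3 (4.39 ± 0.307), P3H2 (3.14 ± 0.191) and P4HA2 (2.60 ± 0.377) followed, with P4HA3 last at 0.112 ± 0.0902. P3H2 was above P4HA2 in each normoxia library, although their ranges overlapped. In hypoxia P4HA1 led at 351 ± 17.3 CPM per kilobase, before PLOD2 at 227 ± 69.2, P4HB at 105 ± 7.44, PLOD1 at 56.4 ± 4.61 and P4HA2 at 34.6 ± 3.16. PLOD3 came next at 18.3 ± 1.79. P3H2 at 5.89 ± 0.430 and P3H1 at 5.64 ± 0.439 did not differ beyond their spread. P3H3 stood at 4.18 ± 0.414 and P4HA3 at 0.617 ± 0.171. The order turned in places with principal transcript lengths. In normoxia P4HB then stood at 57.5 ± 0.553 CPM per kilobase, above PLOD2 at 38.4 ± 3.01 and P4HA1 at 30.5 ± 2.07 (SD, n = 3), while all P4HA2 values (up to 7.70) were above all P3H2 values (up to 5.27). In hypoxia PLOD2 at 465 ± 142 was above P4HA1 at 381 ± 18.8 by the mean, with overlapping ranges. P4HA2 was above PLOD3 in hypoxia and below it in normoxia with both lengths.

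Genes that work with the hydroxylases were described from 9 lists with 98 entries, of which 81 genes were tested. Over the lists 32 were called higher, 25 lower and 24 were not called (edgeR adjusted p under 0.05), with a median log2 change of 0.22, beside 31.2% higher and 31% lower among all tested genes. With library totals alone, 23 were higher and 35 lower. Scaling by library totals alone moved the median of all tested genes from 0.0094 to -0.30 and gave 3421 higher and 6905 lower calls, against 5117 and 5091.

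**Figure D5:**
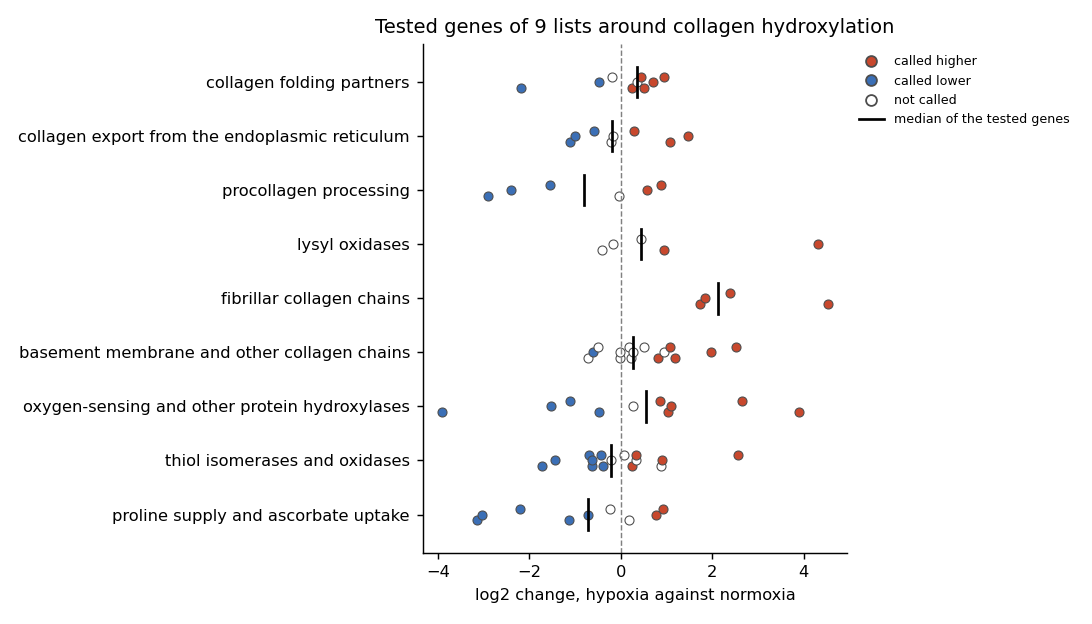
Log2 change, hypoxia against normoxia, of the tested genes in 9 lists around collagen hydroxylation (red called higher, blue called lower, white not called), with the median of each list as a bar. The medians run from -0.80 for procollagen processing to 2.11 for the fibrillar chains, of which 4 of 11 could be tested. These medians include genes that passed the filter through a single group. Among them are ADAMTS3, TLL2, RIOX1 and ALDH4A1 through normoxia, and COL1A1 and COL11A2 through hypoxia.

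Collagen folding partners, which bind or modify chains beside the hydroxylases, had 5 of 9 tested genes called higher and 2 lower, with a median log2 change of 0.35. FKBP10, a prolyl isomerase that assists telopeptide lysine hydroxylation, rose 1.91-fold from 263 ± 10.7 to 503 ± 26.6 CPM (SD, n = 3). PPIB, which encodes cyclophilin B, rose 1.63-fold. The collagen galactosyltransferase gene COLGALT2 fell 4.56-fold to 2.72 ± 0.517 CPM, and FKBP14 fell 1.39-fold. COLGALT1, named after its values were seen, was more abundant and called higher, from 104 ± 10.5 to 148 ± 20.4 CPM (SD, n = 3).

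Thiol isomerases and oxidases, relatives and partners of P4HB, had 4 of 15 tested genes called higher and 7 lower, with a median log2 change of -0.22. ERO1A, the oxidase that recharges protein disulfide isomerase, rose 5.95-fold from 151 ± 5.16 to 896 ± 78.8 CPM (SD, n = 3), and ERP29 rose 1.87-fold. TMX3 and DNAJC10, both thioredoxin-like proteins of the endoplasmic reticulum, fell 3.32-fold and 2.73-fold.

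Other protein hydroxylases had 5 of 10 tested genes called higher and 4 lower. JMJD6, a lysyl hydroxylase of nuclear proteins, rose 14.8-fold, and EGLN1, the main HIF prolyl hydroxylase, rose 6.30-fold. The ribosomal protein hydroxylase gene RIOX2 fell from 25.4 ± 1.09 to 8.86 ± 0.548 CPM (SD, n = 3). Its relative RIOX1 fell from 3.38 ± 0.529 CPM to 0, 0.204 and 0.361 CPM in the hypoxia libraries, which lie near the floor of 3 counts. The log2 change of RIOX1 was -3.91, and -4.95 without hypoxia replicate 3, so its size is uncertain. RIOX1 passed the filter only through its normoxia libraries, so its call as lower was the likely outcome and lends no support.

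Among genes of proline supply and ascorbate uptake, 2 of 9 tested were called higher and 5 lower, with a median log2 change of -0.71. ALDH18A1, which starts proline synthesis from glutamate, rose 1.70-fold. PYCR3, a reductase of proline synthesis from ornithine, fell 8.86-fold to 1.26 ± 0.455 CPM, and ALDH4A1, an enzyme of proline breakdown, fell 8.18-fold. ALDH4A1 was at 0.211, 0.612 and 0.602 CPM in hypoxia, below the minimum of the filter. It passed only through its normoxia libraries, so its call was the likely outcome and lends no support. The ascorbate transporter gene SLC23A1 was at 1.03 ± 0.213 and 2.02 ± 0.582 CPM (edgeR adjusted p = 0.046), a call lost under 11 of the 14 alternatives, with adjusted p up to 0.184.

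Collagen export genes were split, with 3 of 8 called higher and 3 lower. SEC24D, a coat protein of the vesicles that carry procollagen, rose 2.75-fold and TFG 2.09-fold, while KLHL12 fell 2.16-fold. MIA2 fell from 19.4 ± 0.744 to 9.64 ± 1.71 CPM (SD, n = 3). For procollagen processing 2 of 6 tested genes were called higher and 3 lower. The lower calls include ADAMTS3 and TLL2, which passed the filter only through normoxia, so their calls were the likely outcome and lend no support. BMP1, the proteinase that removes the C-terminal propeptide, rose 1.83-fold, and PCOLCE, which enhances that cleavage, fell 2.91-fold. PCOLCE2 was at 10.7 to 12.1 CPM in normoxia and 12.8 to 19.2 CPM in hypoxia (edgeR adjusted p = 0.0154). Its call was lost with library totals alone (adjusted p = 0.214), with no filter (0.052) and without hypoxia replicate 1 or 2 or normoxia replicate 1 or 2 (0.0548 to 0.0694).

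The substrates and the crosslinking enzymes moved unevenly too. Of 11 fibrillar collagen chains only 4 had enough counts to be tested. All 4 were called higher. COL11A2 was at 0.133 to 0.368 CPM in normoxia, and COL1A1 at 0.234 CPM in normoxia replicate 3. These chains passed the filter through the hypoxia libraries, so their calls were the likely outcome and lend no support. COL5A1 stood at 6.43 ± 0.578 CPM in normoxia and 149 ± 8.78 in hypoxia, and COL27A1 rose 3.60-fold. COL1A2 and COL3A1, named after their values were seen, had 2 and 3 counts over all 6 libraries. Of 15 tested basement membrane and other chains 5 were called higher and 1 lower. COL7A1, which forms anchoring fibrils, rose 5.71-fold and COL17A1 3.93-fold, and COL4A5 fell 1.54-fold. LOX and LOXL2 were called higher among the 5 lysyl oxidases, LOX from 127 ± 7.70 to 2532 ± 238 CPM (SD, n = 3).

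The genes most like each strongly changed member were taken by the smallest root mean square difference between log2 CPM profiles over the 6 libraries, each centred on its own mean, among 9409 genes with a mean of at least 10 CPM. FAM219A (0.070), DDIT4 (0.072) and EFNA3 (0.097) were nearest to P4HA1. CA9 (0.071), FAM219A (0.088) and ALDOC (0.096) were nearest to P4HA2. The nearest to PLOD2 were F3 (0.089), EPAS1 (0.115) and SMAD7 (0.118). For PLOD1 they were SERTAD3, STC2 and PPP1R13L, at 0.053 to 0.065, and for P4HB RNMT, ZDHHC9 and ZNF160, at 0.040 to 0.047. The nearest to P4HA3, HIF1A-AS3, CLK1 and MUC1, were farther off, at 0.321 to 0.445. These distances describe the 6 libraries and carry no test.

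By the annotation, the spans of 17 other genes overlap the span of a member. Of these, 10 passed the filter, 8 were called higher, 0 lower and 2 were not called (edgeR adjusted p under 0.05). Among all tested genes 31.2% were called higher and 31% lower. The count of 8 includes the genes with few normoxia counts described below, which passed the filter through hypoxia and lend no support. In the P4HA2 span, PDLIM4, on the opposite strand with no shared exon base, rose from between 33.6 and 41.9 CPM to between 107 and 124 CPM. SLC22A4, placed likewise, was not called (log2 change 0.10, edgeR adjusted p = 0.736), unlike P4HA2. GPR162 in the P3H3 span was not called either.

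The pseudogene ENSG00000224431 within P4HA2, with no exon base in common, had 4, 5 and 0 counts in normoxia and 101, 141 and 201 in hypoxia. ENSG00000232646, a processed pseudogene within P4HA1, had 1, 2 and 1 counts in normoxia and 25, 41 and 47 in hypoxia. ENSG00000237768, annotated antisense to P4HA1 with 47 shared exon bases, had 9, 0 and 0 counts in normoxia and 52, 62 and 34 in hypoxia. These genes were near 0 in normoxia. ENSG00000243415, antisense to PLOD2 with no shared exon base, had 8, 7 and 4 counts in normoxia and 17, 23 and 85 in hypoxia. ENSG00000206913, a small nucleolar RNA gene in the P4HA3 span, had 2, 1 and 5 counts in normoxia and 13, 23 and 21 in hypoxia. These 5 genes had under 10 counts in every normoxia library and passed the filter through the hypoxia libraries, so that being called higher was the likely outcome and is only a description. Without a stated strand setting, reads from the host and reads of the genes on its opposite strand cannot be told apart.

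The other 7 genes were not tested. P4HA2-AS1, which shares 548 exon bases with P4HA2, had at most 5 counts in any library, P3H2-AS1 at most 6 and the P3H2 pseudogene MTAPP2 at most 8. P4HA3-AS1 and MIR6830 had at most 1 count, a Y RNA gene in P4HA1 at most 25, and ENSG00000262831, opposite to P4HB, had 0 in all 6 libraries.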

How the data were processed

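RNA was sequenced from 3 normoxia and 3 hypoxia libraries of IOMM-Lee cells, grouped and numbered by their titles. The deposited counts are whole numbers for each Ensembl gene and library, not normalized by the authors, with 1 column a replicate. Tools listed in the submitters' processing notes are featureCounts 2.0.1 and HISAT2 2.1.0, fastp 0.20.1 and DESeq2 1.37.5, with build GRCh38.p13. Per the labels' protocols, RNA had an integrity number of at least 9.0 and libraries were made with a NEBNext Ultra II kit. For the counting, neither strand nor annotation release is stated in what was used here. A deposited table of normalized values was not used here, since its cells run together.

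Of 61860 lines, 1 names no gene (0.00243% of counts) and was left out. Symbols matched 61756 of 61859 genes, and spans and exon lengths are from GENCODE release 29 (GRCh38). Genes were kept by filterByExpr (minimum count 10, minimum total 15), which left 16411. TMM and edgeR 4.0.16 (R 4.3.3) quasi-likelihood tests with robust dispersions compared the groups, adjusted over all tested genes by Benjamini-Hochberg at 0.05. The SE is the log2 change divided by the square root of F. Log2 CPM used a prior count of 2. Shares, ratios and differences between members were compared by exact two-sided permutation over libraries. Floors cover counting error only. Within groups, pairs of replicates differed beyond counting noise (5.83 to 37 in chi-square a gene), so each library counts as 1 replicate. The fitting code was tested on simulated counts.

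The members and lists were chosen with earlier results of these data known. Named genes were all members, up to 2 called genes a direction and list with mean CPM of at least 1, genes overlapping a member, and the 3 nearest profiles of members changed at least 2-fold. A few other list genes, named for the limits they set, were chosen after their values were seen. Alternatives were DESeq2 1.42.0, limma-voom (limma 3.58.1), other scalings and filters, a replicate block, other lengths or prior count, and leaving out each library.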

Additional observations from a re-analysis of the deposited data

How the results depend on the processing

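Across 14 alternatives to the all-gene fit, P4HA1, P4HA2, P4HA3, P4HB, PLOD1, PLOD2 and P3H2 stayed called higher. The number of members called higher was 7 or 8 in each. With library totals alone, 1 member was called lower: P3H3, at a log2 change of -0.39. P3H1, not called in any setting, was at -0.23 with library totals alone and -0.038 with no filter. PLOD3 lost its call with library totals alone (0.0090) and with no filter (0.20), and its log2 change ranged from 0.23 to 0.36 when single libraries were left out. Its call was also lost without hypoxia replicate 1, normoxia replicate 1 or normoxia replicate 2. The P4HA1 share of alpha RNA, which differed by -0.36 percentage points, lay between -0.90 and 0.13 when single libraries were left out and was above 0 only without hypoxia replicate 2. The cause of these shifts was not tested. A change of scaling moves all genes of a library together and leaves the shares as they are.

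With a replicate block, 4862 genes were called higher and 4906 lower, and 8 members were higher, PLOD3 at adjusted p = 0.0277 (edgeR). Deviations of same-numbered libraries correlated at -0.106, 0.0864 and -0.0378 over genes, and those of differently numbered libraries at -0.142 to 0.182. Deviations centred within 3 libraries are tied to each other. These values thus cannot show whether same-numbered cultures were handled together. Principal transcript length, an alternative chosen after seeing the data, kept the direction of every share and of the subunit ratio (difference 1.77), but changed the order of levels between members. Depth limits P4HA3, with 3 to 14 counts a library in normoxia.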
